A study of Saccharomyces cerevisiae with 4 samples.

Results

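Aminoacyl-tRNA synthetases are the enzymes that attach amino acids to their tRNAs. The 34 Saccharomyces cerevisiae genes considered here were chosen by systematic name: 21 encode cytosolic or dual-targeted enzymes and 13 encode mitochondrial enzymes. The array table held 32 of them among 5799 genes. MES1 (YGR264C) and MSY1 (YPL097W), for the cytosolic methionyl and the mitochondrial tyrosyl enzyme, were not analysed here, and ISM1 (YPL040C), for the mitochondrial isoleucyl enzyme, had values on only 2 arrays. The other 31, 20 cytosolic and 11 mitochondrial, had values on all 4 arrays and were tested.

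All cultures were of haploid strain BY4741, of mating type a, with LYS2 intact and with his3Δ1, leu2Δ0, met15Δ0 and a ura3 deletion that the labels number differently on each array. The treated and the untreated cultures carried the same deletions. Growth was in YPD, a rich medium, at 28 °C until the absorbance reached 0.6. Treated cultures of 50 ml then received 30 mM acetic acid for 2 h, and the others none. Each of the 4 two-colour arrays compared RNA of a treated with RNA of an untreated culture. Cy5 marked the RNA of treated cells on 2 arrays and Cy3 on 2, and each array is named by that dye and its labelled replicate number. The cultures were of 1 strain in a complex medium that supplies amino acids, and 1 acid concentration and 1 time were measured. Values are log2 ratios of acid-treated over untreated RNA. That direction is likely but not stated: it rests on the study's comparison and on stress-induced genes such as HSP26, a small heat shock protein gene with a mean of 6.84. If the ratios ran the other way, all signs given here would turn.

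A synthetase recognises 1 amino acid and the tRNAs that decode it, and its product, the charged tRNA, is what elongation factors bring to the ribosome. Yeast keeps separate enzymes for cytosolic and mitochondrial translation for many amino acids, all encoded in the nucleus. For others 1 gene supplies both places. Those taken as such here, ALA1, GRS1, HTS1 and VAS1, give a cytosolic and an imported form, and the set may not be complete. The enzymes fall into structural classes I and II, which have unrelated catalytic folds. When charged tRNA runs short, uncharged tRNA activates the kinase Gcn2, which raises translation of the activator Gcn4, and several synthetase genes are among the targets known for Gcn4.

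The arrays held values for 5133 to 5505 genes, with medians between -0.028 and 0.010. One array, acid in Cy3 replicate 1, stood apart: 17.4% of its values lay below -1, against 2.13% to 3.55% on the other 3 arrays. Over all genes, which are not independent replicates, its Pearson correlation with the others was 0.41 to 0.62, against 0.67 to 0.80 among those. Of the genes deleted in the strain, HIS3 had values on both sides of 0, from -0.64 to 0.48, MET17 had 0.12 and -2.58 on the 2 arrays that measured it, and URA3 was below 0 on all 4. On acid in Cy3 replicate 1, URA3 stood at -1.94, against -0.39 to -0.16 on the other arrays. HIS3 stood at -0.27 there, within its range on the other arrays. Signal intensities were not analysed here, so it is not known how far any spot stood above background. The arrays' number limits the precision of every value.

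After acetic acid the synthetase genes moved little and in both directions. In a limma fit over 5291 genes, 3 of the 31 tested rose, 1 fell and 27 did not pass an adjusted p of 0.05. DIA4 (YHR011W) and MSM1 (YGR171C), for the mitochondrial seryl and methionyl enzymes, and DPS1 (YLL018C), for the cytosolic aspartyl enzyme, rose 1.89-, 1.74- and 1.59-fold. ILS1 (YBL076C), for the cytosolic isoleucyl enzyme, fell 1.86-fold. The 4 calls are 12.9% of the members tested. Over all genes tested 10.9% were called, 8.85% higher and 2.02% lower, so the share of synthetase genes called was near the background.

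The calls were lost when any of 3 arrays was left out, and calls over all genes fell as well. In the limma fit, 0 of the 31 genes passed when 1 of the arrays with acid in Cy5 was left out, where 8 genes (without replicate 1) and 6 genes (without replicate 2) had an unadjusted p under 0.05, and 0 passed without acid in Cy3 replicate 2, where 6 had. Without acid in Cy3 replicate 1, the array that stood apart, 6 passed: the same 4, SLM5 (higher) and VAS1 (lower). In that fit 899 of all genes were called. With arrays of the same number averaged, which would fit technical dye swaps, 0 passed and 6 had an unadjusted p under 0.05. Of all genes 377 were called and 1399 had an unadjusted p under 0.05 with that averaging.

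**Figure D1:**
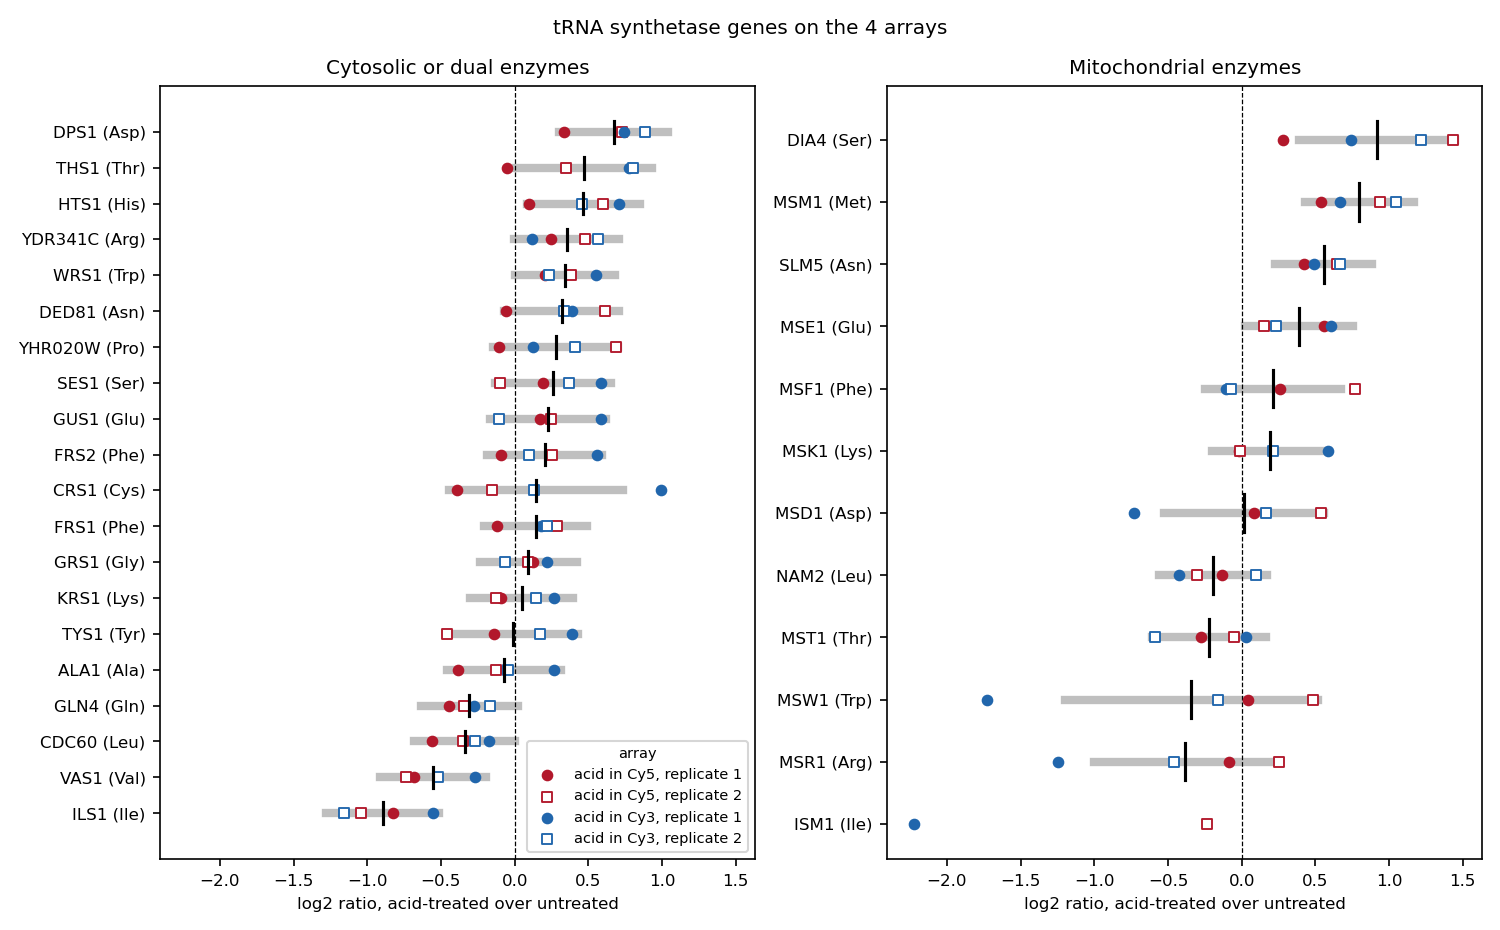
Log2 ratios (acid-treated over untreated, x axis) of the 32 synthetase genes with values, in the order of their means, with cytosolic or dual enzymes on the left and mitochondrial ones on the right. Symbols are the 4 arrays, black ticks are means and grey bars are 95% intervals of the limma fit (none for ISM1, which had 2 values). All ILS1 points lie below 0 and all DPS1, MSM1, SLM5 and DIA4 points above it, and acid in Cy3 replicate 1 (filled blue circles) is far left for MSW1, MSR1 and ISM1.

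Among the cytosolic enzymes, the clearest decrease was that of ILS1. Its log2 ratios were -0.83 and -1.04 with acid in Cy5 and -0.55 and -1.16 with acid in Cy3, all below 0. The mean was -0.90 ± 0.27 (SD, n = 4, as for the values below unless stated), with a 95% interval from -1.28 to -0.51 and an adjusted p of 0.0186 in limma. Isoleucyl-tRNA synthetase is an essential class I enzyme. ILS1 lay at percentile 3.33 of all tested genes.

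The enzymes for the other branched-chain amino acids, valine and leucine, also had all their values below 0. This grouping was made after the values were seen and has no test. VAS1 (YGR094W), the valyl enzyme of cytosol and mitochondria, had -0.69 and -0.74 with acid in Cy5 and -0.27 and -0.52 with acid in Cy3, a mean of -0.55 ± 0.21 that did not pass (adjusted p = 0.0665 in limma). CDC60 (YPL160W), the leucyl enzyme, had -0.56, -0.35, -0.17 and -0.27 in the same order, a mean of -0.34 ± 0.17 (adjusted p = 0.170 in limma). These 3 genes had their highest value on acid in Cy3 replicate 1. GLN4 (YOR168W), the glutaminyl enzyme, was the only other cytosolic gene tested that was below 0 on every array, with -0.44, -0.35, -0.27 and -0.16 and a mean of -0.31 ± 0.12 (adjusted p = 0.185 in limma).

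DPS1 was the cytosolic gene that rose. Its values were 0.34 and 0.73 with acid in Cy5 and 0.74 and 0.89 with acid in Cy3, so only acid in Cy5 replicate 1 was lower than the rest. The mean was 0.67 ± 0.24, with a 95% interval from 0.30 to 1.04 and an adjusted p of 0.0418 in limma. HTS1 (YPR033C), the histidyl enzyme of both compartments, had 0.10, 0.60, 0.71 and 0.46, with a mean of 0.47 ± 0.27 (adjusted p = 0.115 in limma). THS1 (YIL078W), the threonyl enzyme, had -0.05 and 0.35 with acid in Cy5 and 0.78 and 0.81 with acid in Cy3. Its mean was 0.47 ± 0.41 (adjusted p = 0.161 in limma), and its values did not overlap between the dye orientations.

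WRS1 (YOL097C) and YDR341C, for the tryptophanyl and arginyl enzymes, were above 0 on all arrays. WRS1 ranged from 0.21 to 0.55 around a mean of 0.34 ± 0.16, and YDR341C from 0.12 to 0.57 around 0.35 ± 0.20 (adjusted p = 0.166 and 0.169 in limma). DED81 (YHR019C), the asparaginyl enzyme, and YHR020W, the prolyl enzyme, are next to each other in the gene order of the reference. They had means of 0.32 ± 0.28 and 0.28 ± 0.34, and both were below 0 only on acid in Cy5 replicate 1 and highest on acid in Cy5 replicate 2.

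The remaining cytosolic genes had means between -0.07 and 0.26, none called. SES1 (YDR023W), the seryl enzyme, had 0.26 ± 0.29 and GUS1 (YGL245W), the glutamyl enzyme, 0.23 ± 0.28. FRS2 (YFL022C) and FRS1 (YLR060W), which encode the alpha and beta subunits of the phenylalanyl enzyme, had 0.20 ± 0.28 and 0.14 ± 0.18, with FRS2 ahead of FRS1 mainly on acid in Cy3 replicate 1 (0.56 against 0.18). CRS1 (YNL247W), the cysteinyl enzyme, had the widest spread of the cytosolic genes, 0.15 ± 0.60: its value was 0.99 on acid in Cy3 replicate 1, and the mean of the other arrays was -0.14. The glycyl gene GRS1 (YBR121C) had 0.09 ± 0.12, the lysyl gene KRS1 (YDR037W) 0.05 ± 0.19, the tyrosyl gene TYS1 (YGR185C) -0.01 ± 0.37 and the alanyl gene ALA1 (YOR335C) -0.07 ± 0.27. The genes taken here as dual-targeted had no shared direction: HTS1 and GRS1 had means above 0, and ALA1 and VAS1 below 0.

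By structural class, the median ratio of the cytosolic class I genes was below that of class II on every array. The median was -0.01 over 9 class I genes and 0.26 over 11 class II genes, and the difference between the class medians on the arrays was -0.33 and -0.64 with acid in Cy5 and -0.27 and -0.44 with acid in Cy3. The mean of these differences was -0.42 ± 0.16. ILS1, VAS1, CDC60 and GLN4, named above for values below 0 on every array, are all class I. They are part of this difference and not separate support for it. The other class I genes, TYS1, CRS1, GUS1, WRS1 and YDR341C, had means from -0.01 to 0.35. These lay within the class II range of -0.07 to 0.67, so not all of class I had lower ratios. Of the 11 class II genes 10 had means above 0, and the class I median was near the -0.04 of all tested genes. Among mitochondrial genes the medians were -0.19 over 5 class I genes and 0.20 over 6 class II genes. Genes of 1 class are not replicates of a condition, the comparison by class was not among those planned, and the difference was not tested.

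Of the mitochondrial enzymes, which are imported and serve the translation of the few proteins encoded by mitochondrial DNA, DIA4 had the largest mean change among those with values on all 4 arrays. Its log2 ratios were 0.28 and 1.43 with acid in Cy5 and 0.74 and 1.22 with acid in Cy3, so both arrays numbered 2 were above both numbered 1. The mean was 0.92 ± 0.51, with a 95% interval from 0.39 to 1.45 and an adjusted p of 0.0483 in limma. That call was lost by a small margin when arrays were centred on their medians (adjusted p = 0.0503) or when genes with 2 values were also tested (0.0530).

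MSM1 had closer values, 0.54 and 0.94 with acid in Cy5 and 0.67 and 1.05 with acid in Cy3. The mean was 0.80 ± 0.24, with a 95% interval from 0.43 to 1.17 and an adjusted p of 0.0245 in limma. SLM5 (YCR024C), the mitochondrial asparaginyl enzyme, had the smallest spread of the mitochondrial genes, with 0.42, 0.65, 0.49 and 0.67. Its mean of 0.56 ± 0.12 did not pass (adjusted p = 0.0517 in limma). MSE1 (YOL033W), the glutamyl enzyme, was also above 0 on every array, from 0.15 to 0.61, with a mean of 0.39 ± 0.23 (adjusted p = 0.150 in limma). DIA4, MSM1, SLM5 and MSE1 were the 4 mitochondrial genes with 1 sign on all arrays, and no mitochondrial gene was below 0 on all 4.

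MSW1 (YDR268W) and MSR1 (YHR091C), for the tryptophanyl and arginyl enzymes, had means below 0 that came mostly from 1 array. MSW1 had 0.04 and 0.49 with acid in Cy5, -0.16 on acid in Cy3 replicate 2 and -1.73 on acid in Cy3 replicate 1. Its mean was -0.34 ± 0.96, and 0.12 without the last array. MSR1 had -0.09, 0.25 and -0.46 on the same arrays and -1.25 on acid in Cy3 replicate 1, with a mean of -0.39 ± 0.64 against -0.10 without it. The aspartyl gene MSD1 (YPL104W) had -0.73 there and a mean of 0.01 ± 0.53, against 0.26 without it. ISM1 had -2.22 on that array and -0.24 on acid in Cy5 replicate 2. Of the genes deleted in both cultures, URA3 and MET17 had -1.94 and -2.58 on the same array, and HIS3 had -0.27. The lowest HIS3 value, -0.64, was on acid in Cy5 replicate 2. The part of the array in these ratios was not tested.

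The other mitochondrial genes had means from -0.22 to 0.21 and none passed. Their single values ran from -0.589 (MST1) to 0.765 (MSF1). MSF1 (YPR047W), the phenylalanyl enzyme, had 0.21 ± 0.40, with both values with acid in Cy5 above 0 and both with acid in Cy3 below it. MSK1 (YNL073W), the lysyl enzyme, had 0.19 ± 0.28. NAM2 (YLR382C), the leucyl enzyme, which also takes part in the splicing of mitochondrial introns, had -0.19 ± 0.23. MST1 (YKL194C), the threonyl enzyme, had -0.22 ± 0.28.

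Cytosolic and mitochondrial synthetase genes were then compared as groups. The median log2 ratio was 0.18 over the 20 cytosolic genes and 0.19 over the 11 mitochondrial genes, against -0.04 over all tested genes. When 1 array was left out, the cytosolic median was lowest, at 0.09, with acid in Cy3 replicate 1 removed, and highest, at 0.26, with acid in Cy5 replicate 1 removed. The mitochondrial median was lowest, at 0.03, with acid in Cy5 replicate 2 removed, and highest, at 0.26, with acid in Cy3 replicate 1 removed. It was 0.10 when genes with 2 values were allowed. Of the cytosolic genes 1 rose and 1 fell, and of the mitochondrial genes 2 rose and none fell. That is 2 of 20 and 2 of 11 (18.2%) called, against 10.9% of all genes, 8.85% higher and 2.02% lower. Means lay above 0 for 14 of 20 and 7 of 11 genes, against 46.7% of all genes. On the arrays, the cytosolic median minus the mitochondrial median was -0.18 and -0.31 with acid in Cy5 and 0.30 and -0.01 with acid in Cy3. The mean was -0.05 ± 0.27, so the sign differed between arrays and the difference was smaller than its spread. Without acid in Cy3 replicate 1 the difference of the medians was -0.17, and without acid in Cy5 replicate 2 it was 0.14, against -0.02 with all arrays.

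**Figure D2:**
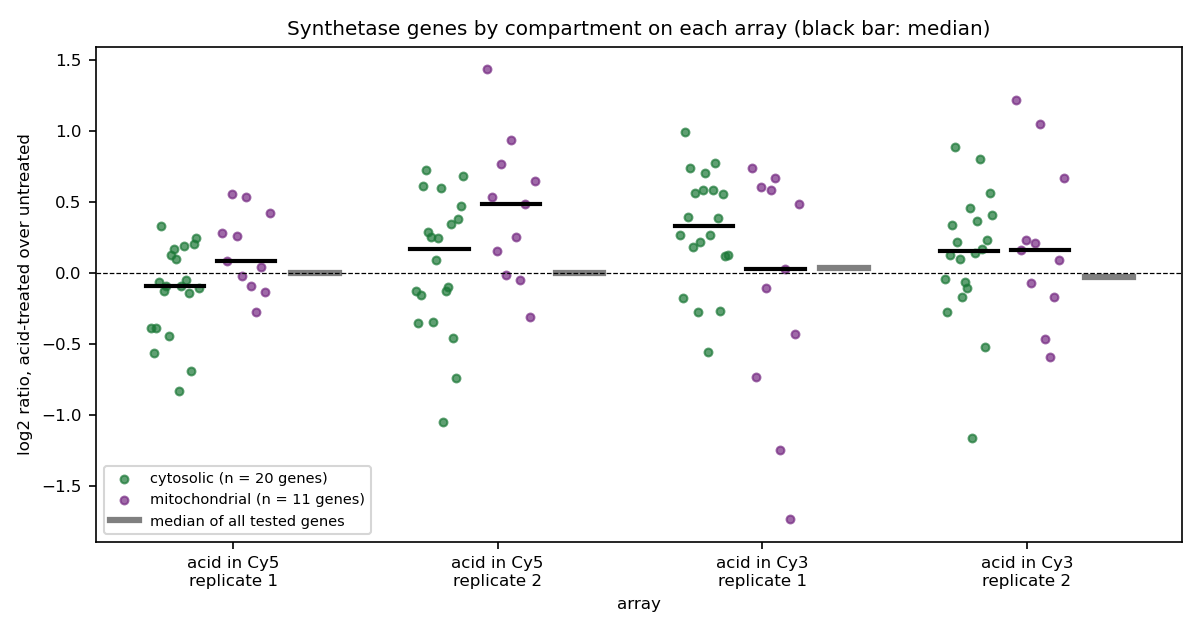
Log2 ratios (acid-treated over untreated, y axis) of the 20 cytosolic and 11 mitochondrial synthetase genes tested on each of the 4 arrays (x axis). Points are genes, black bars their medians and grey bars the medians of all tested genes. The cytosolic median runs from -0.09 on acid in Cy5 replicate 1 to 0.33 on acid in Cy3 replicate 1, where the mitochondrial genes have their 2 lowest points, -1.73 and -1.25.

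By SD the genes varied less among themselves than genes at large, whose SD includes strongly changed genes such as HSP26. The SD of the mean ratios was 0.38 over cytosolic, 0.45 over mitochondrial and 0.68 over all tested genes. The median SD between arrays was 0.27, 0.28 and 0.36 in the same order. For 18 of 20 cytosolic and 7 of 11 mitochondrial genes the 95% interval lay inside -1 to 1, that is, within a 2-fold change either way. Of all tested genes 69.4% had such an interval, so the cytosolic share was above and the mitochondrial share below that of all genes. Intervals reaching past -1 or 1 were those of ILS1, DPS1, DIA4, MSM1, MSR1 and MSW1. Of the 31 genes, 8 were above 0 and 4 below 0 on every array. Among all genes with 4 values these shares were 22.9% and 19.3%.

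Pairs of enzymes for the same amino acid allow a closer comparison, since each cell carries a gene of each kind. For 13 amino acids there was a cytosolic and a mitochondrial member, and for 10 of them both had 4 values, which gave 11 comparisons because the cytosolic phenylalanyl enzyme has 2 subunits. The cytosolic gene had the higher mean in 4 and the lower in 7, with a median difference of -0.07. The differences are given with their spread over arrays and were not tested.

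The pairs went in different directions. For arginine, the difference (YDR341C minus MSR1) was 0.34 and 0.22 with acid in Cy5 and 1.37 and 1.03 with acid in Cy3, with a mean of 0.74 ± 0.55. For threonine (THS1 minus MST1) it was 0.22, 0.40, 0.75 and 1.40 in that order of arrays, with a mean of 0.69 ± 0.52. For aspartate (DPS1 minus MSD1) it was 0.25, 0.19, 1.48 and 0.72, with a mean of 0.66 ± 0.59. In these 3 pairs the cytosolic gene was ahead on every array, and by more on both arrays with acid in Cy3 than on both with acid in Cy5. How often other gene pairs do so was not examined. For arginine and aspartate the largest difference was on acid in Cy3 replicate 1, the array that stood apart. There MSR1 and MSD1 had -1.25 and -0.73. For threonine it was on acid in Cy3 replicate 2.

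For serine the order was the opposite. SES1 minus DIA4 was -0.09 and -1.53 with acid in Cy5 and -0.15 and -0.85 with acid in Cy3, with a mean of -0.66 ± 0.68. The asparagine pair (DED81 minus SLM5, mean -0.24 ± 0.21) and the lysine pair (KRS1 minus MSK1, -0.14 ± 0.12) were also below 0 on every array. The tryptophan pair (WRS1 minus MSW1) had a mean of 0.68 ± 1.09, with 2.28 on acid in Cy3 replicate 1 and -0.11 to 0.40 on the others. The glutamate, leucine and phenylalanine pairs had differences on both sides of 0. For isoleucine, ILS1 and ISM1 stood at -1.04 and -0.24 on acid in Cy5 replicate 2 and at -0.55 and -2.22 on acid in Cy3 replicate 1, so the order of that pair turned between the arrays that measured both.

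**Figure D3:**
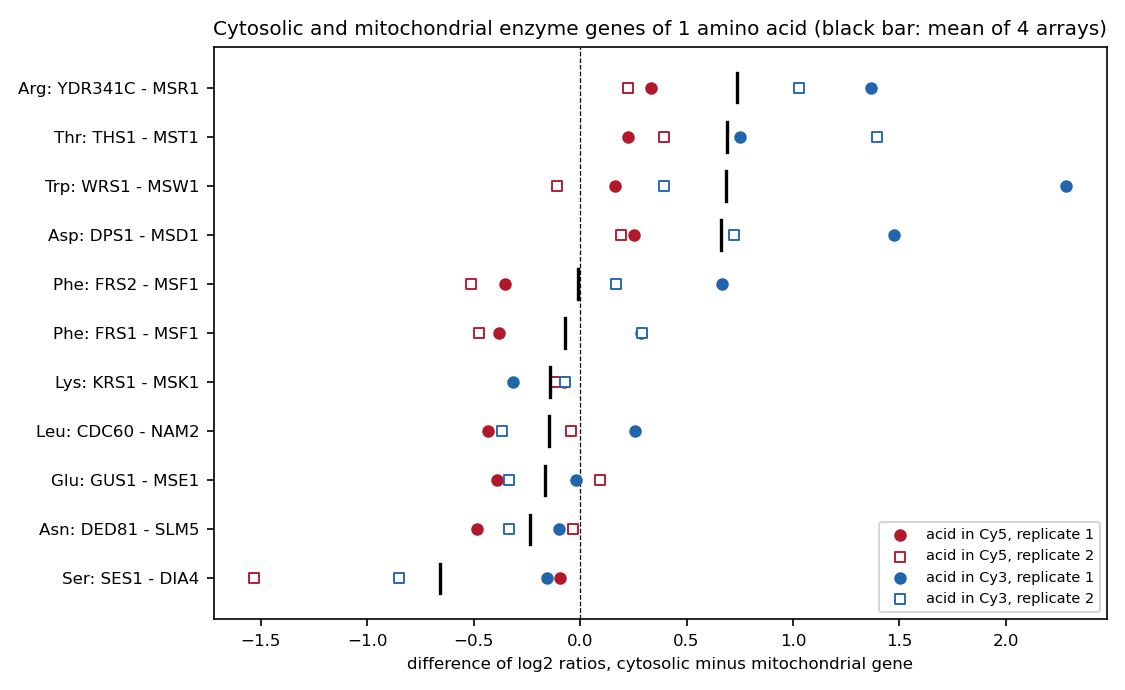
Difference of log2 ratios between the cytosolic and the mitochondrial gene of 1 amino acid (x axis) for the 11 comparisons with values on all 4 arrays (y axis). Symbols are the 4 arrays and black bars their means. The arginine, threonine and aspartate pairs lie right of 0 on every array, and the lysine, asparagine and serine pairs left of it.

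The dye orientation moved with the ratios of the cytosolic genes. For 17 of 20 the mean was higher with acid in Cy3 than with acid in Cy5. The same held for 6 of 11 mitochondrial genes and for 2409 of all 4896 genes with 4 values. For 10 of 20 cytosolic genes both arrays with acid in Cy5 were below both with acid in Cy3. Of all genes with 4 values this held for 18.5%. The median of the orientation difference (acid in Cy5 minus acid in Cy3) was -0.24 over cytosolic, -0.05 over mitochondrial and 0.01 over all genes. Of the cytosolic genes 12 had their lowest value on acid in Cy5 replicate 1 and 13 their highest on acid in Cy3 replicate 1, that is 60.0% and 65.0%, against 21.8% and 35.6% of all genes. Of the mitochondrial genes 5 of 11 had their lowest on acid in Cy3 replicate 1 (45.5%, against 33.4% of all genes).

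A dye term fitted over all genes in limma was not called for any of the 31 members (lowest adjusted p = 0.665), and 1 of them, MSR1, had an unadjusted p under 0.05. Over all genes 12 were called for that term, or 0.227%. The share with an unadjusted p under 0.05 was 7.03% of all genes and 3.23% of the members. With the dye term in the fit, the same 4 synthetase genes were called for acid.

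**Figure D4:**
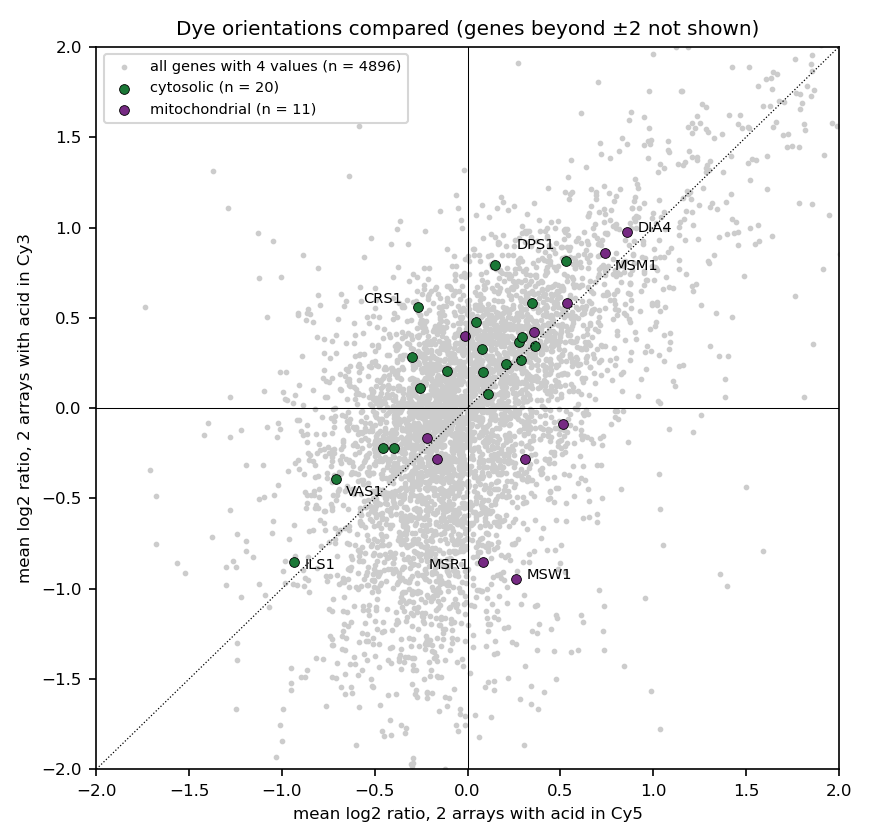
Mean log2 ratio of the 2 arrays with acid in Cy5 (x axis) against that of the 2 with acid in Cy3 (y axis) for all 4896 genes with 4 values (grey), the 20 cytosolic (green) and the 11 mitochondrial (purple) synthetase genes. The dotted line marks equal values, and 148 genes lie outside the axes. Most cytosolic genes lie above the line, and MSR1 and MSW1 lie far below it at -0.85 and -0.95 with acid in Cy3.

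Genes that act with the synthetases were taken from a list of 20 partners in tRNA supply, charging and sensing. Of 19 tested, 1 fell, none rose and 18 did not pass, with a median of -0.25. The 1 call is 5.26% of the list, against 10.9% of all genes, and 2.02% of all genes were called lower. The gene that fell was LOS1, the exportin that carries tRNA out of the nucleus. It had -0.93 and -0.72 with acid in Cy5 and -0.38 and -0.73 with acid in Cy3, with a mean of -0.69 ± 0.23 (adjusted p = 0.0381 in limma). Like the synthetase calls it was lost when any array other than acid in Cy3 replicate 1 was left out, with adjusted p of 0.136 to 0.167.

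Several other partners are named after their values were seen. MAF1, the repressor of the RNA polymerase that makes tRNA, was above 0 on every array, from 0.36 to 1.06, with a mean of 0.67 ± 0.29 that did not pass (adjusted p = 0.0509 in limma). PET112 and GTF1, subunits of the amidotransferase that makes glutaminyl-tRNA in mitochondria, where no glutaminyl synthetase is used, had means of -0.52 ± 0.21 (n = 3) and -0.42 ± 0.24 (adjusted p = 0.132 and 0.134 in limma). ARC1, the cofactor that binds the glutamyl and methionyl enzymes, had 0.18 ± 0.14, next to 0.23 for its partner GUS1. The genes of the sensing pathway, GCN2 and GCN4, had -0.27 ± 0.26 (n = 3) and 0.05 ± 0.20; GCN4 is controlled mainly at translation, which these arrays did not measure. GRS2, the paralogue of GRS1, had -0.33 ± 0.20, below 0 on every array, whereas GRS1 was at 0.09 ± 0.12; cross-hybridisation between such similar genes was not tested.

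The listed translation factor genes showed no call in either compartment. Of 10 cytosolic elongation factor genes none passed in limma and 1 had an unadjusted p under 0.05, with a median of -0.20. Over all tested genes 10.9% were called and 29.8% had an unadjusted p under 0.05. HYP2, the main gene for the translation factor eIF5A, had -0.38 ± 0.11 and EFT1, for elongation factor 2, had 0.36 ± 0.43 (adjusted p = 0.127 and 0.263 in limma). The near-identical genes TEF1 and TEF2 had the same values on both arrays numbered 2, so they are not separate measurements there. Of 7 mitochondrial translation factor genes tested none passed and 1 had an unadjusted p under 0.05, to be read against the same shares of all genes. All 7 had means below 0, with a median of -0.24, against 0.19 for the mitochondrial synthetases. Of all tested genes 46.7% had means above 0. The pattern varied with the array: on acid in Cy5 replicate 1 the median of the 7 was 0.01 and 4 were above 0. For 6 of the 7 the mean was higher with acid in Cy5 than with acid in Cy3, against 2487 of all 4896 genes with 4 values. RRF1 had the lowest mean, -0.78, against -0.27 without acid in Cy3 replicate 1. MRF1, the release factor, had -0.48 ± 0.25 and GUF1, a relative of bacterial elongation factor 4, -0.54 ± 0.55 (adjusted p = 0.102 and 0.172 in limma). The difference between these lists was not tested.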

How the data were processed

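Per the labels' protocols, an acid-phenol extraction gave total RNA, which was labelled by an indirect method. The authors deposited 1 ratio per gene and array, read here as log2 of acid-treated over untreated RNA. How background, normalization and filters were handled is not given in the sources used here. Base 2 is an assumption from signed values with medians near 0. The swapped arrays correlated above 0 with the others, so they had already been turned. The 4 arrays are biological replicates in the design text; if same-numbered arrays share RNA, n is 2.

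The 5291 genes with at least 3 values entered 1 limma model (version 3.58.1, R 4.3.3; lmFit, then eBayes) with only an intercept; two-sided p-values were adjusted over all of them (Benjamini-Hochberg), at a threshold of 0.05; the prior had 3.34 degrees of freedom. Symbols came from the RefSeq gene table of assembly R64, which matched all 34 members; YDR341C and YHR020W kept their systematic names. Intervals are 95% limma intervals. The fit was tested on simulated data. Members and lists were chosen with earlier results of these data known. By plan, every member could be named, and from each other list up to 4 called genes, or the 2 with the smallest p. The other genes named from those lists fall outside this rule and were picked after their values were seen. Alternatives were a dye term, handling of same-numbered arrays, scaling, minimum values, variance models, a minimum fold and leaving out arrays. Promoter motifs and sequences were not analysed here.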

Additional observations from a re-analysis of the deposited data

How the results depend on the processing

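The number of synthetase genes called was 3 to 6 under the dye term, array scaling, other minimums of values, robust variance and the replicate block, against 4. It was 0 (cytosolic 0, mitochondrial 0, tRNA partners 0) with same-numbered arrays averaged, without shared variance and with a minimum fold of 1.5, where limma called 377, 204 and 168 of all genes and 6, 12 and 1 synthetase genes had an unadjusted p under 0.05. Leaving out 1 array gave 0 to 6 synthetase genes (cytosolic 0 to 3, mitochondrial 0 to 3, partners 0 to 2) and 187 to 899 genes in all; 899 was without acid in Cy3 replicate 1. Mitochondrial calls numbered 1 after centring or with 2 values allowed. Partner calls numbered 2 with the dye term, the replicate block, scale or quantile normalization, or 4 values required. After quantile normalization 66.9% of all calls were higher, against 81.4%. The medians of the groups and their difference moved by less than 1 SD between arrays, which is a weak check. The variance models, dye term and replicate block leave these means unchanged by construction. Leaving out 1 of 4 values moves their mean by only part of their SD. The mitochondrial median still fell from 0.191 to 0.028 without acid in Cy5 replicate 2 and to 0.102 with 2 values allowed. The cytosolic minus mitochondrial difference, -0.016 with all arrays, ran from -0.166 to 0.138 when 1 array was left out. In 4 to 6 pairs the cytosolic gene was higher. The sign of 6 uncalled genes turned in fits without 1 array: ALA1 ranged from -0.185 to 0.0327, KRS1 from -0.025 to 0.106, TYS1 from -0.142 to 0.140, CRS1 from -0.136 to 0.324, MSD1 from -0.162 to 0.261 and MSW1 from -0.618 to 0.121. ILS1, DPS1 and MSM1 were called in 9 of 15 alternatives and DIA4 in 7, with adjusted p from 0.00652 to 0.673 for ILS1. Deviations from the orientation means correlated at 0.252 between arrays of the same number; 2 pairs are too few to show pairing. The replicate block, with an estimated correlation of -0.109, called 6 synthetase and 733 genes in all. The causes were not tested. No array met the outlier criterion for any of 36 named genes. The criterion was a Dixon test, which compares the gap to the nearest value with the range. With 4 values per gene it can miss an aberrant array. The 36 genes did not include URA3 and RRF1, at -1.94 and -2.33 on acid in Cy3 replicate 1. The test therefore cannot decide whether an array was aberrant. Signal over background is unknown.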
